A study of Homo sapiens with 4 samples.

Results

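The genes described here encode laminin chains and other structural proteins of the basement membrane. They were chosen by name, as the deposited entries whose Ensembl identifier maps to LAMA3, LAMA5, LAMB1, LAMB2, LAMB3, LAMC1, COL4A1, COL17A1 or HSPG2, which made 9 of the 50653 genes listed. The values come from RNA sequencing of 4 libraries of cultured cells, 1 each for BT-20 with control shRNA, BT-20 with QPRT shRNA, MDA-MB-468 with control shRNA and MDA-MB-468 with QPRT shRNA. Both are cell lines established from human breast cancers without estrogen receptor, progesterone receptor or HER2 amplification (triple-negative), and a short hairpin RNA (shRNA) is cut by the cell's own machinery to a small interfering RNA against the mRNA it matches. QPRT makes a precursor of NAD from quinolinate, and the libraries address which transcripts differ once QPRT is depleted. The cells of all 4 groups carried a stably introduced hairpin, so no library represents unmodified cells. With 1 library per line and shRNA, a difference between shRNAs within a line has no replicate check. The authors gave every gene in FPKM, the fragments of a gene per kilobase of transcript, scaled to the depth of the library. Where a pair of values is given for a line, the control shRNA library comes before the QPRT shRNA library unless the text says otherwise.

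The basement membrane is a thin sheet of extracellular matrix that underlies epithelial cells. Its polymer-forming units are laminins, each built of an alpha, a beta and a gamma chain, and networks of type IV collagen, with the heparan sulfate proteoglycan perlecan among the components that bind both. Epithelial cells hold to it through integrins and dystroglycan, and in hemidesmosomes, anchoring points of stratified and glandular epithelium, through a laminin that contains the LAMA3 and LAMB3 chains and the transmembrane collagen COL17A1.

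QPRT, the target of the hairpin, measured 249 FPKM in the BT-20 control library against 40.5 FPKM after knockdown, and 117 against 18.3 FPKM in MDA-MB-468. The libraries held between 10321996 and 10945948 fragments, recovered from the step between the values of each library. Epithelial markers were high in all 4 libraries, with KRT19 between 2850 and 3577 FPKM. Of the 5 epithelial markers, CDH1, KRT8 and KRT18 were lower in MDA-MB-468 by the test between lines given below, and EPCAM was higher. Over all genes tested, 24.4% were lower and 30.7% higher. The median difference of the 5, MDA-MB-468 minus BT-20, was -1.33 on the log2 scale, against 0.099 over all genes. Of the receptors whose low level defines triple-negative lines, PGR was listed at 0 in every library, ESR1 lay between 1.05 and 5.76 FPKM and ERBB2 between 50.7 and 129 FPKM. Fibroblast markers other than COL1A1, and all 4 smooth muscle markers, lay at or below 1.32 FPKM. A list of 7 markers of gut epithelium and plasma cells differed with the hairpin, with summed values of 68.2 and 152 FPKM in the control libraries of BT-20 and MDA-MB-468 against 23.6 and 24.0 FPKM in the QPRT shRNA libraries. Every one of these 7 was at least 2-fold lower with QPRT shRNA in both lines, and none was at 0 in any library. On the log2(FPKM + 1) scale, 93 of all 14321 genes tested were that much lower for BT-20, against 124 for MDA-MB-468. With both lines in 1 fit, limma called all 7 between shRNAs at an adjusted p under 0.05. They were among 90 such genes, 0.628% of all genes tested. These 7 markers were chosen with earlier results of these data known, so their shared direction is a description only. Their part in the differences between shRNAs given below was not tested.

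The members with the largest difference between the lines were LAMB3, LAMC1 and LAMA5, and the sequence just upstream of each start is shown because these 3 differed in the same direction. The sequences are from RefSeq on GRCh38.p14, in the direction of transcription, and leave out bases that GENCODE 29 places in an exon. Capitals mark each GC box, the letters GGGCGG or their complement CCGCCC, which is a binding sequence of the Sp family of transcription factors.
LAMB3 upstream, chr1:209652467-209652675, minus strand: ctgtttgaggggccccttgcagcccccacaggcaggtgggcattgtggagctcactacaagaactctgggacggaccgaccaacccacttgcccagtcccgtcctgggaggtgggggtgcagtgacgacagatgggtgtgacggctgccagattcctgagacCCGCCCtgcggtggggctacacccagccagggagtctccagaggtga
LAMC1 upstream, chr1:183023170-183023419, plus strand: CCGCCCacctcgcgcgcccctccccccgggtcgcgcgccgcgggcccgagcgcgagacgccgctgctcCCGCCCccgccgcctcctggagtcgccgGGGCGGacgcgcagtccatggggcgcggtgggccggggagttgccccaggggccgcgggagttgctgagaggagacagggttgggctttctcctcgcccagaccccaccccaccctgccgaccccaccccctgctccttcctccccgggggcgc
LAMA5 upstream, chr20:62367313-62367562, minus strand: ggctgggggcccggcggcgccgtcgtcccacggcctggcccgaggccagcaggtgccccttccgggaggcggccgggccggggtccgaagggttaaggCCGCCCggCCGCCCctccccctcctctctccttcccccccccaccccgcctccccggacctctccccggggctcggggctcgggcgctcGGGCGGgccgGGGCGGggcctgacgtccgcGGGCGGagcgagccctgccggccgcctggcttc
The LAMB3 stretch held 1 such match, LAMC1 held 3 and LAMA5 held 5. In the 250 bases before the start of the other members, HSPG2 held 8, LAMB1 held 4, COL4A1 held 2, LAMA3 and LAMB2 held 1 each and COL17A1 held 0, so the number of matches did not set the 3 genes apart. Over all 35116 promoters in the RefSeq table, 42.6% had at least 1 match and 24.3% at least 2 in a stretch of 250 bases, and 36.9% had at least 1 in a stretch of 209 bases, the length shown for LAMB3. LAMB3 had 3 start sites in that table and the first is shown.

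LAMA3 was the member with the largest difference between shRNAs. Its RefSeq start at position 23873020 of chromosome 18 lies inside the gene as GENCODE 29 draws it and belongs to the shorter LAMA3 transcript. The 250 bases before this start held 2 matches to TGANTCA, the letters bound by AP-1 factors, which read the same on both strands. Each is shown in capitals with its flanks.
LAMA3 first match, chr18:23872884-23872912, plus strand: ctggcacaggcTGACTCAtgtgtgaagtt
LAMA3 second match, chr18:23872940-23872968, plus strand: ccttcctcaccTGAGTCAggcaggcccgg
At least 1 match was present in 6.57% of all 35116 promoters and at least 2 in 0.402%. Of the other members, LAMB3 held 1 match in the 250 bases before at least 1 of its 3 starts, and none within the 209 bases shown above. No match was found for the remaining members. A match to these letters is a description of the window, not evidence of binding.

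For genes whose fragments came out whole, the deposited FPKM divided by the mean length of all annotated transcripts. For LAMA5 this mean was 1640 bases against 11426 bases for its longest coding transcript. Fragments of LAMA3, COL4A1, COL17A1, HSPG2 and COL4A2 did not come out whole, so the length used may differ and their levels per kilobase are approximate. Levels of different genes were therefore compared as depth-scaled fragments per kilobase of the longest coding transcript. On this scale LAMA5, the alpha chain of the laminins widespread in adult epithelium, was the highest member in BT-20, at 124 with the control hairpin and 136 after knockdown. In MDA-MB-468 it measured 38.4 and 35.4, beside 38.0 and 40.6 for LAMB2, so that the order of these 2 genes differed between the MDA-MB-468 libraries. LAMA3, the alpha chain of the hemidesmosomal laminin, was far lower, between 0.590 and 2.44 over the 4 libraries.

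LAMB2 was the highest beta chain in every library, with 59.5 and 56.8 in BT-20. LAMB3, the beta chain that pairs with LAMA3, came next in BT-20, at 29.6 and 41.5, and LAMB1, the beta chain of many embryonic and adult laminins, followed at 20.3 and 25.2. In MDA-MB-468 the order of these 2 was turned, with LAMB1 at 16.8 and 16.9 and LAMB3 at 3.33 and 6.50. The ratio of LAMB2 to LAMB3 was 2.01 and 1.37 in BT-20 against 11.4 and 6.24 in MDA-MB-468. LAMC1, the gamma chain shared by most laminins, measured 49.8 and 40.9 in BT-20 against 9.73 and 8.26 in MDA-MB-468. Both MDA-MB-468 values were far below both BT-20 values.

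Summed over the genes of a kind of chain, alpha chains reached 125 and 139 in BT-20 against 48.9 and 47.9 in MDA-MB-468. Beta chains summed to 109 and 124 in BT-20 against 58.2 and 64.0 in MDA-MB-468. HSPG2, which encodes perlecan, lay between 2.25 and 5.97, COL4A1 between 0.863 and 1.11, and COL17A1 between 0.121 and 0.483, so that both collagens stood below every laminin chain of the 9 genes other than LAMA3.

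**Figure D1:**
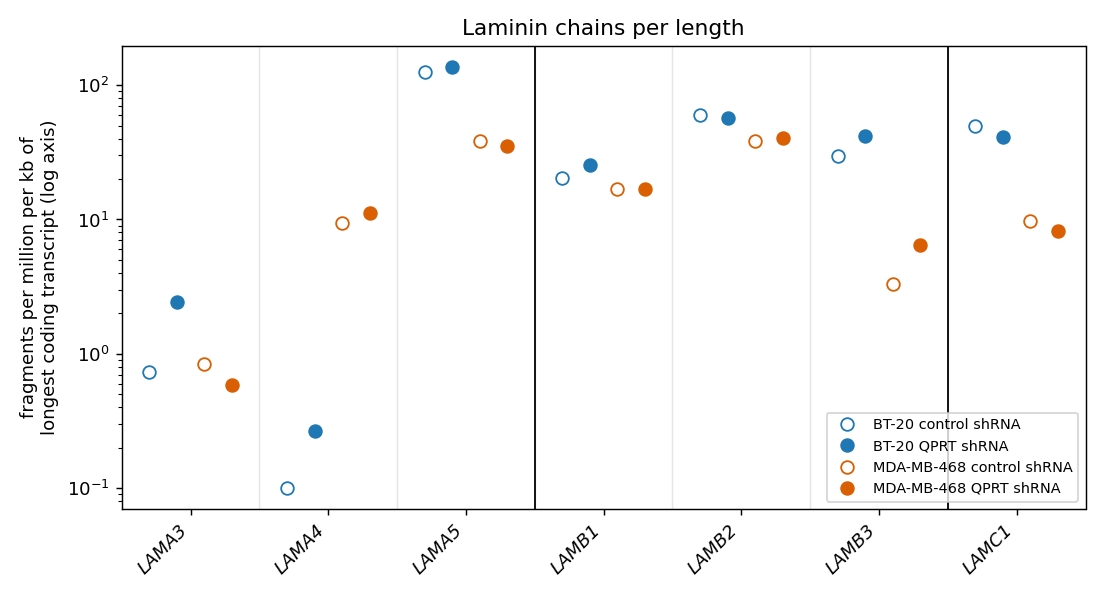
Level of the laminin alpha and beta chains and of LAMC1 in depth-scaled fragments per kilobase of the longest coding transcript (log axis), 1 point per library, with open points for control shRNA and filled points for QPRT shRNA. LAMA5 at 124 and 136 stood highest in BT-20, LAMA4 was above 9 only in MDA-MB-468, and LAMB3 and LAMC1 were lower in both MDA-MB-468 libraries than in both BT-20 libraries.

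Between the lines, most of the laminin chains were lower in MDA-MB-468 than in BT-20. Of the 8 members with a mean of at least 1 FPKM, 6 were lower at an adjusted p under 0.05 (limma on log2(FPKM + 1) with line and shRNA as terms) and 0 were higher. Over all 14321 genes tested, 24.4% were lower and 30.7% higher by the same rule, 55.1% in all. The median difference of the 8 members, MDA-MB-468 minus BT-20, was -0.92 on the log2 scale, against 0.099 over all genes. The members were chosen with earlier results of these data known, so this contrast with all genes is a description only. COL17A1, with a mean of 0.685 FPKM, was below the minimum and was not tested. The fit had 1 residual degree of freedom and took its spread wholly from the trend over all genes, so the error of a gene reflects its mean level and not its own scatter. Both libraries of a line enter as replicates although they differ in shRNA, and culture or preparation of a line cannot be told apart from the line. In bulk RNA, fewer cells expressing a gene and less RNA per cell cannot be told apart.

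LAMB3 (chromosome 1, 209614870 to 209652466, minus strand) had the largest difference. It measured 45.8 FPKM with control shRNA and 64.1 FPKM with QPRT shRNA in BT-20 against 5.16 and 10.1 FPKM in MDA-MB-468. Both MDA-MB-468 libraries lay far below both BT-20 libraries. The difference was -2.74 ± 0.23 (log2, SE), 6.69-fold lower in MDA-MB-468 (limma, adjusted p = 1.04e-30).

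LAMC1 (chromosome 1, 183023460 to 183145592, plus strand) measured 205 and 168 FPKM in BT-20 against 40.0 and 34.0 FPKM in MDA-MB-468. The groups did not overlap, and the difference was -2.30 ± 0.20 (log2, SE), 4.93-fold lower in MDA-MB-468 (limma, adjusted p = 1.99e-28). LAMA5 (chromosome 20, 62307955 to 62367312, minus strand) followed, at 867 and 949 FPKM in BT-20 against 268 and 247 FPKM in MDA-MB-468. Its difference of -1.82 ± 0.19 (log2, SE) was 3.52-fold (limma, adjusted p = 8.16e-21). These 3 chains were lower in MDA-MB-468 whichever hairpin was compared, with -2.93, -2.33 and -1.69 on the log2 scale for LAMB3, LAMC1 and LAMA5 between the control libraries and -2.56, -2.27 and -1.94 between the QPRT shRNA libraries.

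HSPG2 (chromosome 1, 21822245 to 21937297, minus strand) measured 37.3 and 46.7 FPKM in BT-20 against 19.9 and 17.6 FPKM in MDA-MB-468, a difference of -1.12 ± 0.22 (log2, SE; limma, adjusted p = 2.55e-06). LAMB2 (chromosome 3, 49121114 to 49133118, minus strand) measured 295 and 282 FPKM in BT-20 against 189 and 201 FPKM in MDA-MB-468. Its difference of -0.56 ± 0.19 (log2, SE) was among the smaller ones that passed the test (limma, adjusted p = 0.00744). LAMB1 (chromosome 7, 107923799 to 108003255, minus strand) measured 71.8 and 89.4 FPKM in BT-20 against 59.5 and 59.7 FPKM in MDA-MB-468. Both MDA-MB-468 values were the lower ones, but the difference of -0.42 ± 0.20 (log2, SE) did not pass (limma, adjusted p = 0.0692), and it did once the trend on GC content and length was removed (limma, adjusted p = 0.0210).

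LAMA3 (chromosome 18, 23689443 to 23956222, plus strand) was the exception among the chains that passed, since its groups overlapped. It measured 2.20 FPKM with control shRNA and 7.29 FPKM with QPRT shRNA in BT-20 against 2.50 and 1.76 FPKM in MDA-MB-468. The difference of -0.73 ± 0.29 (log2, SE; limma, adjusted p = 0.0225) rested on the BT-20 library with QPRT shRNA. Between the control libraries it was 0.13 and between the QPRT shRNA libraries -1.59. Its own residual SD was 0.857, against the 0.287 that the fit took from the trend, and the call was lost without the shRNA term (limma, adjusted p = 0.167) and with the trend on GC content and length removed (limma, adjusted p = 0.0566).

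COL4A1 (chromosome 13, 110148963 to 110307233, minus strand), a chain of the most widespread type IV collagen, showed no detected difference between the lines, with 4.15 and 3.36 FPKM in BT-20 against 4.31 and 4.06 FPKM in MDA-MB-468. The difference was 0.13 ± 0.28 (log2, SE; limma, adjusted p = 0.719). COL17A1 (chromosome 10, 104031286 to 104085957, minus strand) was listed at 0.482 and 0.299 FPKM in BT-20 against 1.19 and 0.767 FPKM in MDA-MB-468, from about 12, 8, 30 and 18 fragments. It was the only member whose 2 MDA-MB-468 values both exceeded both BT-20 values. The counting interval of the ratio of MDA-MB-468 to BT-20 was 0.27 to 2.38 on the log2 scale for control shRNA and -0.02 to 2.66 for QPRT shRNA. Across the 8 members tested, both MDA-MB-468 libraries were below both BT-20 libraries for 6, which were LAMA5, LAMB1, LAMB2, LAMB3, LAMC1 and HSPG2, against 34.7% of all genes tested.

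**Figure D2:**
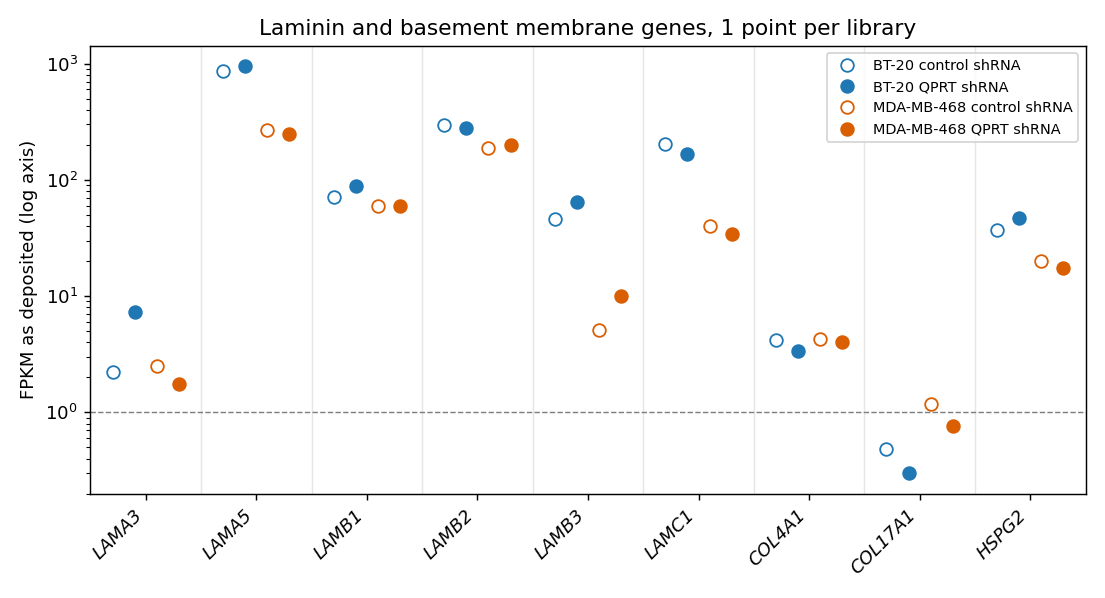
Deposited FPKM of the 9 genes (log axis), 1 point per library, with open points for control shRNA and filled points for QPRT shRNA, and a dashed line at the minimum mean of 1 FPKM. LAMB3, LAMC1 and LAMA5 were lower in both MDA-MB-468 libraries, and the BT-20 library with QPRT shRNA stood apart for LAMA3 at 7.29 FPKM.

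**Figure D3:**
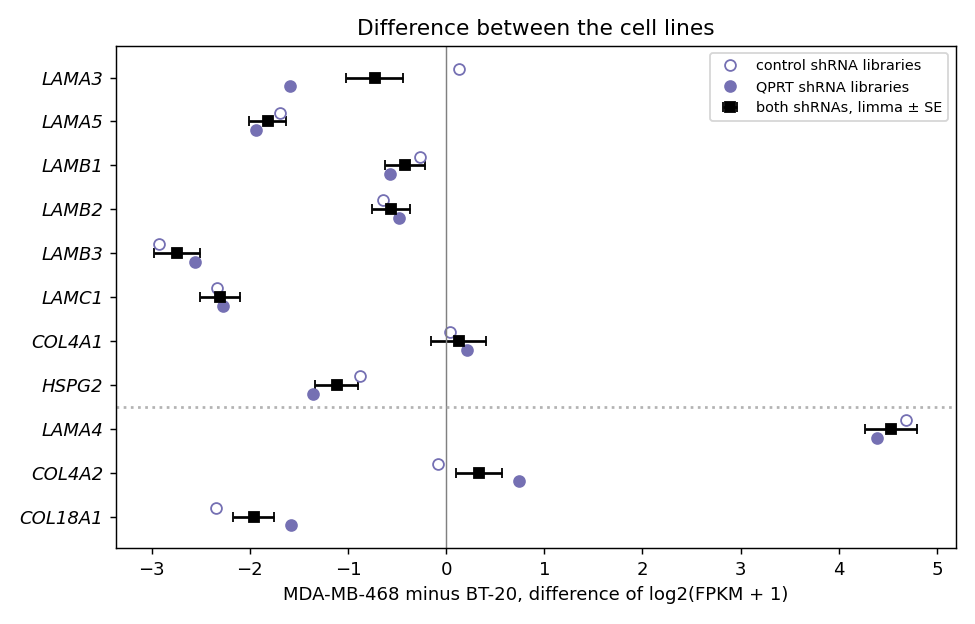
Difference between the lines, MDA-MB-468 minus BT-20, in log2(FPKM + 1), for the 8 members tested and, below the dotted line, 3 related genes. Circles give the control shRNA and the QPRT shRNA libraries alone, and squares with bars give the limma estimate with its SE. LAMB3, LAMC1 and LAMA5 lay between -2.74 and -1.82, LAMA4 at 4.54, and the circles of LAMA3 lay on both sides of 0.

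Between the shRNAs, most of the 9 genes differed little. In BT-20, LAMA3 was the 1 of 8 members with a difference of at least 2-fold on the log2(FPKM + 1) scale, where 1.7% of all genes tested passed this size, 1.05% upward and 0.649% downward. In MDA-MB-468, 0 of 8 members did, where 1.89% of all genes passed. The medians of the 8 members were 0.22 in BT-20 (0.048 over all genes) and -0.093 in MDA-MB-468 (0.011 over all genes). With both lines in 1 fit, limma called 0 of 8 members at an adjusted p under 0.05, and 0.628% of all genes. At an unadjusted p under 0.05 it had 1 of 8 members, LAMB3, beside 687 of all 14321 genes. Limma-voom on the recovered fragments called 0 members as well and 64 of 14232 genes, with LAMA3 and LAMB3 among the 595 genes at an unadjusted p under 0.05.

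LAMA3 measured 7.29 FPKM with QPRT shRNA against 2.20 FPKM with control shRNA in BT-20, a ratio of 3.31, and 1.76 against 2.50 FPKM in MDA-MB-468, a ratio of 0.703. The values rest on about 284, 84, 65 and 98 fragments, rounded because they did not come out whole for this gene. The log2 ratio of fragments was 1.72 in BT-20, with an exact Clopper-Pearson 95% interval of 1.36 to 2.09, and -0.51 in MDA-MB-468, with an interval of -0.98 to -0.04. These intervals cover counting error only, since each group had 1 library. If repeated fragments of a molecule were counted more than once, the intervals are also too narrow. On the log2(FPKM + 1) scale the differences were 1.37 and -0.34, and removing the trend on GC content and length gave 1.21 and -0.26.

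LAMB3 was higher with QPRT shRNA in both lines, at 64.1 against 45.8 FPKM in BT-20 and 10.1 against 5.16 FPKM in MDA-MB-468. The ratio was 1.40 in BT-20 against 1.95 in MDA-MB-468, where LAMB3 was the 1 of 8 tested members with a difference of at least 1.5-fold on the log2(FPKM + 1) scale and 9.17% of all genes passed that size. The log2 ratio of fragments was 0.49 (95% counting interval 0.39 to 0.59) in BT-20 against 0.97 (0.68 to 1.25) in MDA-MB-468. Over both lines the difference was 0.66 ± 0.23 (log2, SE), with an unadjusted p = 0.0043 and an adjusted p = 0.329 (limma), so it did not pass. Its partner LAMA3 was higher with QPRT shRNA in BT-20 and lower in MDA-MB-468.

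The abundant chains gave small differences with narrow counting intervals. LAMA5 had a log2 ratio of fragments of 0.13 (0.10 to 0.16) in BT-20 against -0.12 (-0.18 to -0.06) in MDA-MB-468. Removing the trend on GC content and length gave 0.25 and -0.25 on the log2(FPKM + 1) scale, both outside these intervals. LAMC1 was lower with QPRT shRNA in both lines, with -0.29 (-0.35 to -0.22) in BT-20 against -0.24 (-0.38 to -0.09) in MDA-MB-468. With that trend removed LAMC1 gave -0.36 in BT-20, outside its interval, and -0.19 in MDA-MB-468, within it. Neither difference reached 1.5-fold, and over both lines LAMC1 did not pass (limma, adjusted p = 1.00).

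LAMB2 had log2 ratios of fragments of -0.07 (-0.13 to 0.0021) in BT-20 against 0.09 (0.01 to 0.18) in MDA-MB-468, signs that both turned once the trend on GC content and length was removed, to 0.079 and -0.017. LAMB1 had 0.31 (0.21 to 0.42) in BT-20 against 0.0050 (-0.12 to 0.13) in MDA-MB-468. HSPG2 had 0.32 (0.18 to 0.47) in BT-20 against -0.18 (-0.40 to 0.03) in MDA-MB-468. For these 3 genes the differences were below 1.5-fold in both lines, and at 332 to 3583 fragments per library the counting interval was narrow beside that threshold.

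The collagens had wider intervals. COL4A1 had a log2 ratio of fragments of -0.31 (-0.82 to 0.19) in BT-20 against -0.09 (-0.57 to 0.39) in MDA-MB-468, from 62 to 80 fragments per library. COL17A1 had -0.62 (-2.12 to 0.79) and -0.65 (-1.58 to 0.24), from 8 to 30 fragments. All 4 intervals included 0, so no difference between shRNAs was detected for these 2 genes, and the intervals of COL17A1 also included 2-fold.

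The sign of the difference was opposite in the 2 lines for 4 of 8 members, LAMA3, LAMA5, LAMB2 and HSPG2, against 54.6% of all genes tested. LAMB1 and LAMB3 were higher with QPRT shRNA in both lines, against 26.2% of all genes, although LAMB1 in MDA-MB-468 turned sign under upper quartile and TPM scaling. LAMC1 and COL4A1 were lower in both, against 17.7%. With 1 library per group, the difference between the lines in the response to the hairpin was not tested.

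**Figure D4:**
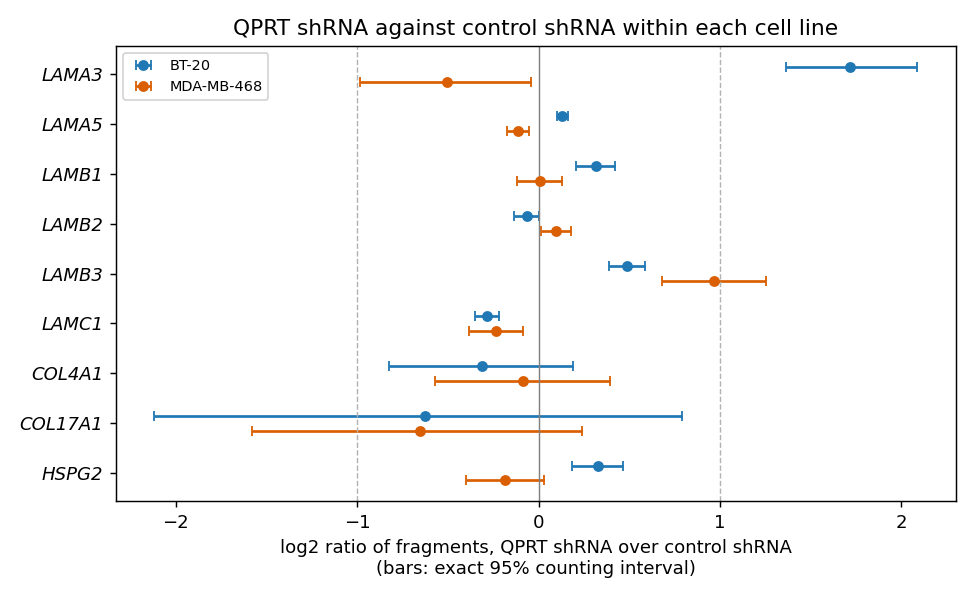
Log2 ratio of recovered fragments, QPRT shRNA over control shRNA, in BT-20 and MDA-MB-468, with exact 95% counting intervals as bars and dashed lines at a 2-fold difference. The interval of LAMA3 in BT-20, 1.36 to 2.09, lay wholly above 2-fold, LAMB3 lay above 0 in both lines, and the intervals of COL4A1 and COL17A1 spanned 0.

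Of 5 other laminin chains, 1, LAMA4, reached the minimum mean level, and only through MDA-MB-468, the line where it was high. Its call between the lines is therefore given as a description. LAMA4, the alpha chain of laminins in vessel walls and muscle, was higher in MDA-MB-468, with 0.362 and 0.957 FPKM in BT-20, from 7 and 19 fragments, against 34.1 and 39.9 FPKM in MDA-MB-468 (4.54 ± 0.26, log2, SE; limma, adjusted p = 1.80e-63). Per kilobase of the longest coding transcript, the ratio of LAMA5 to LAMA4 was 1236 and 512 in BT-20 against 4.06 and 3.19 in MDA-MB-468.

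Of 8 other collagens of the basement membrane zone, 5 were tested and 1, COL18A1, the source of endostatin, was lower in MDA-MB-468. Among all genes tested, 24.4% were lower. It measured 101 and 88.1 FPKM in BT-20 against 19.2 and 28.9 FPKM in MDA-MB-468. COL4A2, the partner of COL4A1 in the collagen IV protomer, measured 20.5 and 10.9 FPKM in BT-20 against 19.4 and 19.0 FPKM in MDA-MB-468, with the BT-20 library with QPRT shRNA as the low value. Its log2 ratio of fragments in BT-20 was -0.91 (-1.16 to -0.66), and that of COL4A1 was -0.31. The RefSeq starts of COL4A1 and COL4A2 lie head to head on chromosome 13 with 126 bases between them. Per kilobase of the longest coding transcript, COL4A2 was at 3.33 to 5.05 times the level of COL4A1, with the lowest ratio in the BT-20 library with QPRT shRNA. Fragments of neither gene came out whole, so these ratios are approximate.

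Of 12 linker and accessory proteins, 8 were tested, 3 were lower in MDA-MB-468 and 0 higher. Among all genes tested, 24.4% were lower and 30.7% higher. EGFLAM, which encodes the dystroglycan ligand pikachurin, measured 31.6 and 18.0 FPKM in BT-20 against 1.17 and 1.02 FPKM in MDA-MB-468. FREM2, of the Fraser complex at the epidermal basement membrane, measured 4.04 and 4.02 FPKM in BT-20, and was listed at 0.011 and 0 FPKM in MDA-MB-468. It reached the minimum mean only through BT-20, so its call is likewise a description. FBLN1, a fibulin that binds laminin and other matrix proteins, was the highest of the list, at 964 and 709 FPKM in BT-20 against 481 and 489 FPKM in MDA-MB-468. AGRN, the proteoglycan agrin, did not pass the test, with 398, 475, 406 and 470 FPKM over the 4 libraries in the order above. NID1 and NID2, the nidogens that bridge laminin and collagen IV, were at most 0.252 FPKM in any library and were named after their values were seen.

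The 14 laminin receptors and hemidesmosome genes had 12 tested members, of which 6 were lower in MDA-MB-468 and 1 was higher. Shares over all genes tested were 24.4% lower and 30.7% higher. ITGB1, the beta subunit of most laminin-binding integrins, measured 617 and 864 FPKM in BT-20 against 246 and 245 FPKM in MDA-MB-468. ITGA3, the alpha subunit of the integrin that binds LAMA3- and LAMA5-containing laminins, measured 199 and 363 FPKM in BT-20 against 91.8 and 110 FPKM in MDA-MB-468. The other lower genes were CD151, DAG1, PLEC and SDC4, with differences between -1.36 and -0.77 on the log2 scale. ITGA6, the higher one and named after its values were seen, measured 23.9 and 28.8 FPKM in BT-20 against 44.9 and 36.9 FPKM in MDA-MB-468. ITGB4, its hemidesmosomal partner, had a difference of -0.15 ± 0.21 (log2, SE; limma, adjusted p = 0.549).

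For the shRNA contrast, limma called 0 genes of these 4 lists and of the enzymes below. At an unadjusted p under 0.05 the receptor list had 2 of its 12 tested members, ITGA3 and ITGA2, beside 687 of all 14321 genes. ITGA2, the alpha subunit of a collagen and laminin receptor, was the 1 tested gene of these lists with a difference of at least 2-fold in a line on the log2(FPKM + 1) scale, and was named after its values were seen. Over all genes tested, the share passing this size was 1.7% for BT-20, against 1.89% for MDA-MB-468. ITGA2 measured 2.91 FPKM with control shRNA and 11.3 FPKM with QPRT shRNA in BT-20 against 4.12 and 3.28 FPKM in MDA-MB-468. As for LAMA3, the BT-20 library with QPRT shRNA was the high value and the other 3 lay close together.

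Of 12 enzymes and chaperones of collagen and laminin assembly, 11 were tested, with 3 lower and 3 higher in MDA-MB-468. This was near the shares over all genes tested, 24.4% lower and 30.7% higher. P4HA1 and P4HA2, alternative catalytic subunits of prolyl 4-hydroxylase, differed in opposite directions, with P4HA1 at 14.5 and 15.4 FPKM in BT-20 against 3.71 and 4.34 FPKM in MDA-MB-468, and P4HA2 at 1.75 and 3.12 FPKM in BT-20 against 13.6 and 14.4 FPKM in MDA-MB-468. PXDN, the peroxidase that crosslinks collagen IV, was higher in MDA-MB-468, at 147 and 175 FPKM against 74.0 and 73.9 FPKM. PLOD2 was the other higher gene, and PLOD3 and BMP1 the other lower ones.

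The genes whose pattern over the 4 libraries was nearest to that of each of the 3 leading members were ranked by the root mean square distance of centred log2 values, among 10422 genes with a mean of at least 5 FPKM. For LAMC1 these were NDRG2, ARHGEF40 and REEP6, at distances of 0.025, 0.025 and 0.040. For LAMA5 they were RPS3AP6, AP1G1 and HERC2P3, at 0.036, 0.046 and 0.047. LAMB3 had no neighbour as near, with PRKAG2-AS1, SLC16A1 and ARHGAP10 at 0.160, 0.161 and 0.188. SLC16A1, the lactate transporter MCT1, measured 87.3 and 133 FPKM in BT-20 against 8.35 and 18.4 FPKM in MDA-MB-468, higher with QPRT shRNA in both lines as LAMB3 was. With 4 values per gene, such nearness is a description only.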

How the data were processed

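RNA of BT-20 and MDA-MB-468 cells with control or QPRT shRNA was sequenced as 4 libraries, and line and shRNA were taken from the column names and sample labels. The authors deposited FPKM values per Ensembl gene. The submitters' processing notes name FastQC, MultiQC, CASAVA, TopHat2 2.0.12 and HTSeq 0.6.1. The genome build, the annotation and the strand setting of counting are not given in the sources used here. Reads of LAMA5 and ADRM1 or LAMA5-AS1, LAMB1 and DLD, LAMC1 and LAMC1-AS1, COL4A1 and COL4A2, and HSPG2 and LDLRAD2, which overlap on opposite strands in GENCODE 29 (GRCh38), may therefore not be separated. Gene coordinates are from GENCODE 29 and promoters from RefSeq.

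FPKM times mean transcript length gave whole fragments within 0.02 for 97.6% to 97.8% of values above 0 of genes with a single transcript, and for 85.3% to 85.6% of all genes. LAMA3, COL4A1, COL17A1 and HSPG2 did not come out whole and were rounded. Fragment totals were 10621657 and 10909859 for BT-20 and 10945948 and 10321996 for MDA-MB-468 (control, then QPRT shRNA). At this depth counting error is small for the abundant laminin chains and large for COL4A1 and COL17A1.

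In R 4.3.3, limma 3.58.1 modelled log2(FPKM + 1) of the 14321 genes with a mean of at least 1 FPKM, with line and shRNA as terms, eBayes with a trend and Benjamini-Hochberg adjustment over all of them. FPKM are not counts, so no count test was used as the main test. The step was tested on simulated data of 14232 genes, 200 of them made 4-fold different between the lines. It recovered 100%, and 8.68% of its calls were false, above the nominal 5%. Every simulated gene had the same scatter beyond counting and no shRNA effect, which real genes need not share. The simulated share of changed genes was also far below the 55.1% called in these data. These percentages therefore do not measure the error of the calls made here. Within a line no test was possible, and 2-fold was the threshold. Exact Clopper-Pearson 95% intervals of fragment ratios cover counting error only. Alternatives were a pseudocount of 0.1, upper quartile and TPM scaling, no filter, a mean of at least 5 FPKM, removal of the lowess trend on GC content and length (fraction 0.3), eBayes without the trend, limma-voom on recovered fragments, fits without 1 of the terms, each shRNA or line alone, and a threshold of 1.5-fold.

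The members and the 12 other gene lists were chosen with earlier results of these data known. Named by rule were the 9 genes, QPRT, from each list up to 4 tested genes of the highest mean FPKM and up to 4 with the largest called difference between the lines, and the 3 nearest profiles of 3 members. Some genes of the lists are given by count only, and some related genes are not reported here. Other steps used matplotlib 3.10.9, statsmodels 0.14.6, scipy 1.17.1, pandas 2.3.3 and numpy 2.4.6 in Python 3.11.15.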

Additional observations from a re-analysis of the deposited data

Results flagged for a closer look

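In 4 genes the libraries of BT-20 and MDA-MB-468 differed in opposite directions between QPRT shRNA and control shRNA, on the log2(FPKM + 1) scale, and the difference between the lines was not tested because each group has 1 library. LAMA3 gave 1.37 in BT-20 against -0.34 in MDA-MB-468. HSPG2 gave 0.32 and -0.17, LAMA5 gave 0.13 and -0.12, and LAMB2 gave -0.065 and 0.093. Opposite signs were found in 54.6% of all genes tested, and only LAMA3 of the 4 exceeded 1.5-fold in a line.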

How the results depend on the processing

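The 6 members lower in MDA-MB-468 numbered 5 or 6 under all alternatives run but 1. With no filter on low values, 0 members and 0 of 50626 genes were called by limma, while 5 members and 7482 genes stood at an unadjusted p under 0.05. With the trend on GC content and length removed, the count of 6 held LAMB1 in place of LAMA3. For LAMA3 the difference between the lines was 0.13 with control shRNA libraries alone. The count of members at least 2-fold different between shRNAs in BT-20 was 0 with a mean of at least 5 FPKM, where LAMA3 was below the minimum, and that in MDA-MB-468 was 1 at 1.5-fold. Over both lines, 0 members were called under all alternatives run, and the shRNA difference turned to -0.015 for LAMA5 and -0.0089 for LAMB2 under upper quartile scaling. Over all genes, the shRNA contrast called 90 with limma, 2 with the trend on GC content and length removed and 0 without the line term. Members with opposite signs numbered 3 to 5. The fit over both lines already pairs the control and QPRT shRNA libraries by line. The labels carry no replicate numbers for any other pairing, and with 1 library per group no replicate could be left out. Limits are the single library per group, a spread borrowed wholly from other genes, and counting error for LAMA3 and the collagens.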

Other observations

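Genes known from other cell types or other epithelial layers also separated the lines, and are named here because of their values. CDH5, the cadherin of endothelial junctions, measured 96.5 and 134 FPKM in BT-20 against 1.24 and 0.912 FPKM in MDA-MB-468, while PECAM1, VWF, KDR and TEK, other markers of endothelium, were at most 3.27 FPKM in any library. All 4 basal markers tested were higher in MDA-MB-468, beside 30.7% of all genes tested. KRT17, a basal keratin, measured 2.76 and 2.51 FPKM in BT-20 against 237 and 373 FPKM in MDA-MB-468. KRT14, the keratin of basal cells that hemidesmosomes anchor, measured 0.330 and 0.161 FPKM in BT-20, and 5.76 FPKM (control) and 40.6 FPKM (QPRT shRNA) in MDA-MB-468. On the log2(FPKM + 1) scale it was the only basal marker at least 2-fold different between shRNAs, in MDA-MB-468, where 1.89% of all genes tested passed this size. Over both lines limma called KRT14 between shRNAs (adjusted p = 0.00598), beside 0.628% of all genes tested. Its differences had opposite signs, -0.20 in BT-20 against 2.62 in MDA-MB-468. KRT14 reached the minimum mean only through MDA-MB-468, so its calls are a description.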
